A study of Gossypium hirsutum with 15 samples.

Results

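Cotton fibers are single cells that grow out from the surface of the ovule. They first elongate and then, after a transition phase, lay down a thick secondary wall of nearly pure cellulose. The *im* (immature fiber) mutant of Upland cotton (*Gossypium hirsutum*) is known for fibers with a thin secondary wall, and at 13 days post anthesis (DPA) cotton fibers are usually still elongating. The fibers of TM-1, the wild-type genetic standard line, were here compared with those of *im* at 13 DPA, the earliest stage sampled. The members are the 3 arrays that the sample titles assign to 13 DPA, out of 15 arrays covering 13, 16, 19, 22 and 25 DPA with 3 arrays each. Each array carried cDNA of both lines, 1 in Cy5 and the other in Cy3.

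Both groups were field-grown plants at the same stage. The *im* line carries its mutation in a TM-1 background and had no other allele or treatment named in the sources, so the lines are near-isogenic and the comparison rests on a single mutant line. RNA came from pooled plants. The sample labels give fiber as the tissue, while the series record speaks of ovules with their fibers. The methods describe 3 pools per stage in one place, and in another a design with a dye swap and fewer biological replicates than arrays, so the p-values may in part measure technical spread. In such bulk RNA, fewer cells of a type and less RNA per cell cannot be told apart. None of the tables used here names the gene of a probe. Probes therefore appear by ID, no pathway or tissue marker was assessed, and the labelled tissue was not checked against markers.

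The sign of every ratio below follows the source names, which place *im* in Cy5 on replicates 1 and 3 and TM-1 in Cy5 on replicate 2. This opposes the written methods, which place TM-1 in Cy5 outside the dye swap. If the methods are right, the 2 lines swap roles in every statement on 13 DPA, and the sources do not settle the point. The dye labels as written put *im* in Cy5 on replicate 2 too. The arrays bear on that last point directly. Over all probes, log2(Cy5/Cy3) of replicates 1 and 3 correlated at 0.63, while replicate 2 correlated at -0.54 with replicate 1 and -0.55 with replicate 3. With replicate 2 turned as the dye swap, the 3 correlations were 0.54, 0.63 and 0.55. These are correlations across probes, which are not independent replicates.

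The control spots turned as well. Each array carried 8 named controls, Y1 to Y8, at 48 spots each, whose contents are not given in the sources used here, and for 3 of them (Y1, Y2 and Y7) both dyes read at least 65000 units on an array, near the ceiling of the scanner, so they hold no ratio there. The other 5 (Y3 to Y6 and Y8) had medians of log2(Cy5/Cy3) whose sign on replicate 2 was opposite to that on both other arrays. Except for Y4, many of their spots were saturated in a dye, which bounds their ratios. Y4 was the control with no saturated spot, and its median was 0.73, -0.52 and 0.24 on replicates 1, 2 and 3. The turned sign was also seen for Y3 (0.59, -0.56 and 0.63), which had saturated spots.

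**Figure D1:**
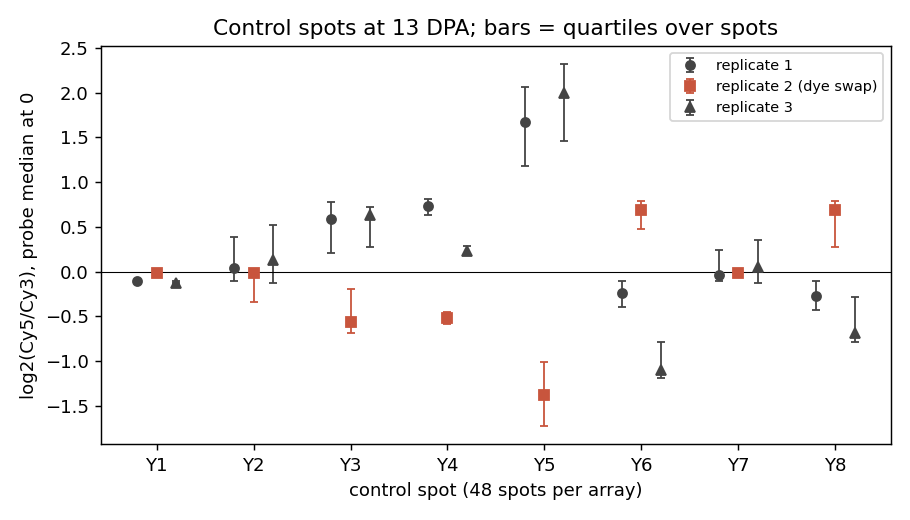
Median log2(Cy5/Cy3) of the 48 spots of each control Y1 to Y8 on the 3 arrays of 13 DPA, relative to the median of the probes; bars are quartiles over spots. For Y3 to Y6 and Y8 replicate 2, the dye swap, lies on the other side of 0 from replicates 1 and 3; Y1, Y2 and Y7 were near the ceiling in both dyes on an array and hold no ratio there.

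Of 29184 probes on the array, 19272, 18827 and 16792 were measured on replicates 1, 2 and 3, where measured means at least 400 intensity units above background in at least 1 dye. Background was higher in Cy3 (420, 345 and 279 units) than in Cy5 (73, 88 and 90 units) on all 3 arrays. With 3 arrays, precision is limited throughout.

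The lines differed at few probes. Among 18363 probes tested, 382 differed by at least 2-fold with an adjusted p under 0.05 (limma, Benjamini-Hochberg), which is 2.08% of those tested. Of these, TM-1 was the higher line for 150 (0.817%) and *im* for 232 (1.26%), so that 60.7% of the differing probes were higher in *im*. The count rests in part on faint spots. When spots with either dye under 400 units were left out it was 252, with TM-1 the higher line for 87 and *im* for 165. Without the fold limit 2419 probes passed the adjusted p, 1133 towards TM-1 and 1286 towards *im*, so most differences that passed the test were smaller than 2-fold. The median log2(TM-1/*im*) over all tested probes was 0.01, a value near 0 that loess on each array sets by construction. In the rest of the text, called means past both limits.

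**Figure D2:**
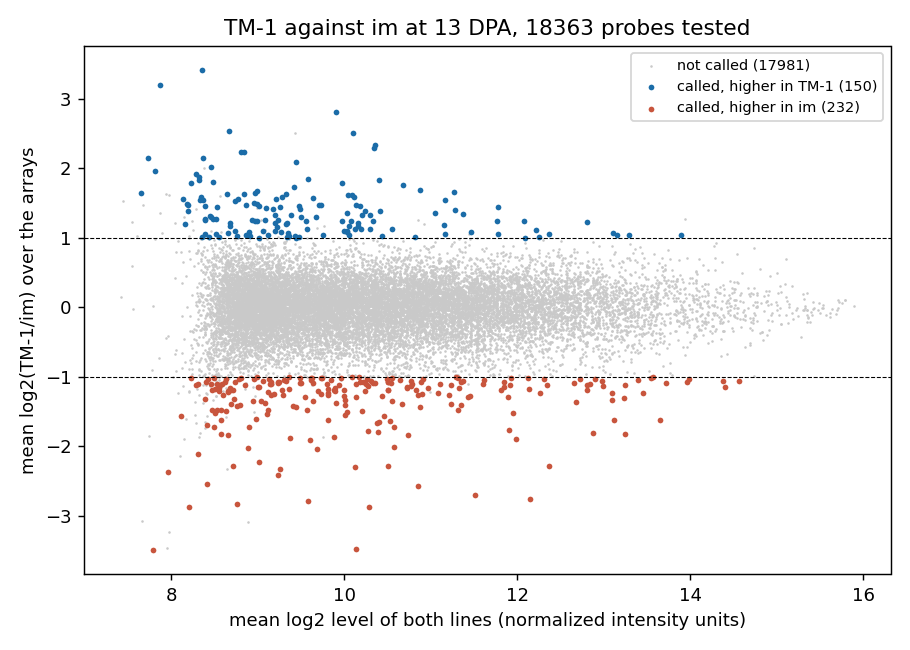
Mean log2(TM-1/*im*) at 13 DPA against the mean log2 level of both lines for the 18363 probes tested, 1 point per probe; dashed lines mark a 2-fold difference. The 150 probes called higher in TM-1 and the 232 called higher in *im* are coloured, and those higher in TM-1 lie more to the left, at lower levels.

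Most differences were under 3-fold in both directions. Probes higher in TM-1 had a median fold change of 2.47 (quartiles 2.14 and 2.96), 36 reached 3-fold and 13 reached 4-fold. Probes higher in *im* had a median of 2.28 (quartiles 2.11 and 2.78), 46 reached 3-fold and 22 reached 4-fold. All 382 had the same direction on each array that measured them, against 57.2% of the 15924 tested probes measured on all 3 arrays; this follows in part from the call itself.

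The called probes were unevenly spread over signal levels. From the faintest to the brightest of 5 equal bins of the tested probes, 3.27%, 2.10%, 2.29%, 1.17% and 1.58% were called. The decline was mainly in the TM-1 direction, with 1.61% of the faintest and 0.35% of the brightest bin called higher in TM-1, against 1.66% and 1.23% called higher in *im*. The median mean log2 level was 9.34 for probes higher in TM-1 and 9.997 for those higher in *im*, against 10.1 for all tested. The median SD across arrays fell from 0.32 in the faintest to 0.15 in the brightest bin.

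Many called probes had 1 line near background. Both lines reached 400 units on all 3 arrays for 63 of the 150 probes called towards TM-1 and for 132 of the 232 in the *im* direction. Among the 18363 tested probes this held for 13752, of which 1.42% were called. Another 526 tested probes (2.86%) had 1 line under 400 units on all 3 arrays, and 15.6% of these were called. In each direction 41 probes had the lower line under 400 units on all 3 arrays. For these a limited fold is given. On each array it raises the lower line to at least the lowest normalized level of that line among probes at 400 units or more. A line just under 400 units could sit at a higher level, so the limited fold is not a strict minimum. The limited folds ran from 1.13 to 4.11 (median 2.05) for TM-1 and from 1.42 to 3.74 (median 2.23) for *im*. They reached 2 for 23 and 25 probes. The differing probes came from across the slide and the source plates. All 48 printing blocks and 75 of the 76 plates held at least 1. The share of tested probes called ran from 0.508% to 4.68% per block and from 0% to 7.47% per plate, against 2.08% in all. Counts were small, with at most 13 on 1 plate. Whether these shares vary more than such counts would by themselves was not tested.

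Among probes with both lines at 400 units or more on all 3 arrays, 384P39_D_20 had the largest excess in TM-1. On replicates 1, 2 and 3 it read 3483, 2463 and 3334 units in TM-1 and 680, 403 and 689 units in *im*. TM-1 was well above *im* on each array, with no overlap. Its log2 ratios were 2.50, 2.63 and 2.40, a 5.69-fold difference (log2 2.51 ± 0.12, SD, n = 3; adjusted p = 4.23e-06 by limma). The next was 384P29_D_18, at 4582, 2769 and 3428 units in TM-1 and 1166, 527 and 663 units in *im*. It too was separate on every array, and was 5.06-fold higher in TM-1 (log2 2.34 ± 0.18, SD, n = 3; adjusted p = 1.2e-06 by limma).

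In the other direction, 384P51_F_12 read 593, 550 and 546 units in TM-1 and 4975, 5092 and 3181 units in *im*. The TM-1 values were nearly level across arrays, and the lower *im* value was on replicate 3. It was 7.31-fold higher in *im* (log2 -2.87 ± 0.42, SD, n = 3; adjusted p = 1.66e-05 by limma). A brighter probe, 384P72_B_17, read 2774, 2181 and 2156 units in TM-1 and 22024, 20900.5 and 10183 units in *im*. Here too replicate 3 had the smallest gap, and the difference was 6.73-fold (log2 -2.75 ± 0.67, SD, n = 3; adjusted p = 4.23e-06 by limma).

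**Figure D3:**
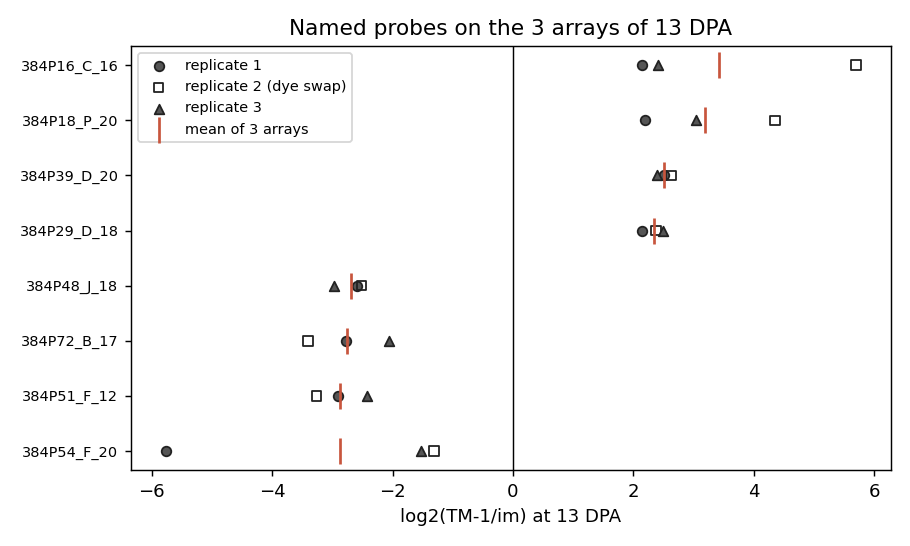
log2(TM-1/*im*) at 13 DPA of the probes with the largest fold change and the largest shift to 16 DPA on each of the 3 arrays, with their mean. Replicate 2 is the dye swap; each probe keeps its side of 0 on all 3 arrays, and 384P16_C_16 and 384P54_F_20 each have 1 array far from the other two.

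For probes with a line under 400 units the mean can rest on 1 array. Probe 384P16_C_16 read 1040, 801.5 and 969.5 units in TM-1 and 218, 1.5 and 194 units in *im*, and its log2 ratios were 2.14, 5.70 and 2.41. The high ratio is that of replicate 2, where *im* was at background. Its limited fold towards TM-1 was 4.11, the highest of all and not a strict minimum (measured log2 3.42 ± 1.98, SD, n = 3, adjusted p = 0.003 by limma). The log2 ratio was 2.27 without replicate 2. The highest limited fold in the other direction was 3.74. That probe was at 282, 202 and 111 units in TM-1 and 2251, 2101 and 597 units in *im* (adjusted p = 4.68e-05 by limma). Both probes passed the 400-unit filter through their brighter line alone. Their p-values thus rest on values under 400 units, and neither probe could be tested when both dyes had to reach 400 units.

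The probes that differed at 13 DPA were then followed at the other 4 stages, which are separate arrays. They were chosen on their 13 DPA values. At 16 DPA, of 132 tested probes among those higher in TM-1 at 13 DPA, 33 were again called higher in TM-1 while 30 were called the other way, with a median log2 ratio of 0.25. The background among all probes tested at both stages was 3.62% and 5.08%. At 19 DPA 9 of 112 were called in the TM-1 direction and 13 against it (background 1.84% and 3.65%), and at 22 DPA 2 of 125 and none (background 1.33% and 1.93%). At 22 DPA 15 were higher in *im* at an unadjusted p under 0.05 by limma. That is a looser limit, for which the share of all tested probes was not counted. The medians at 19 and 22 DPA were -0.10 and 0.02. At 19 DPA the quartiles were -0.64 and 0.37 and the calls went both ways, so the median does not mean that the lines were alike.

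At 25 DPA most of the calls were in the 13 DPA direction. Of 124 tested probes higher in TM-1 at 13 DPA, 83 (66.9%) were called in the same direction and 2 in the opposite one, against a background of 1.89% and 2.12%, and the median log2 ratio was 1.21. The per-array medians at 25 DPA were 1.33, 1.27 and 1.47, and 90 of the 112 probes measured on all 3 arrays had TM-1 higher on all 3. The fit shares its estimate of the spread between stages. With each stage fitted on its own arrays the share was 59.1% (68 of 115). It was 58.5% (38 of 65) when spots with either dye under 400 units were left out.

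Of the probes higher in *im* at 13 DPA, 12 of 190 (6.32%) were called higher in *im* at 25 DPA, against a background of 2.12%. Another 4 were called higher in TM-1 (background 1.89%), and the median log2 ratio was 0.10. The share higher in *im* was 9.64% without replicate 3 of 25 DPA. At 16 DPA 47 of 187 were called higher in *im* and 29 higher in TM-1 (median -0.28), at 19 DPA 17 and 19 of 174, and at 22 DPA 19 and 30 of 184. Both directions were thus above the background at 16, 19 and 22 DPA. The difference between the shares of the 2 sets at 25 DPA was not tested.

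**Figure D4:**
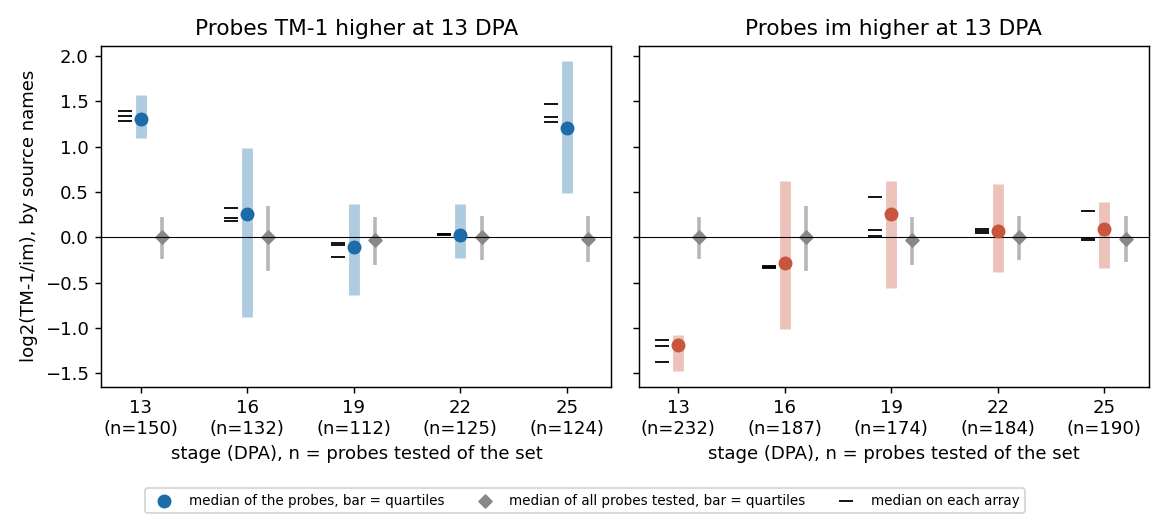
log2(TM-1/*im*) at each stage of the probes higher in TM-1 (left) and higher in *im* (right) at 13 DPA: large points are medians over probes, thick bars quartiles, short dashes the median on each array, and grey diamonds all probes tested. The probes higher in TM-1 have medians of 1.31 at 13 DPA and 1.21 at 25 DPA and of -0.10 and 0.02 at 19 and 22 DPA. Those higher in *im* have medians of -0.28 to 0.26 after 13 DPA, with quartiles on both sides of 0.

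The signs at 16 and 22 DPA need a further caution. There the material labels oppose the source names, which were followed here, and under the material labels the directions at those 2 stages turn. At 13, 19 and 25 DPA the 2 kinds of label agree.

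The 83 probes higher in TM-1 at both 13 and 25 DPA had median log2 ratios of 1.46 and 1.77 at these stages, which chose them. At the stages in between, which did not, the medians were -0.84 at 16 DPA (30 of 72 tested called higher in *im* and 3 higher in TM-1, against backgrounds of 5.08% and 3.62%), -0.23 at 19 DPA (8 and 3 of 66, against 3.65% and 1.84%) and -0.03 at 22 DPA, where limma called none of 82 in either direction and 21 had an unadjusted p under 0.05. The share of all tested probes at that unadjusted limit was not counted. At 13 DPA *im* was under 400 units on all 3 arrays for 25 of the 83 probes, and 23 had both lines at 400 units or more on all arrays of 13 and 25 DPA. They came from 44 plates, with at most 5 on 1 plate.

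For the 59 of these probes tested at all 5 stages, the gaps at 13 and 25 DPA follow from their choice, while those in between do not. The median log2 level in TM-1 was 10.29, 9.26, 9.65, 11.90 and 11.70 from 13 to 25 DPA. In *im* it was 8.72, 10.08, 9.80, 12.02 and 9.86. Both lines were at their highest at 22 DPA and their array medians overlapped there, whereas at 25 DPA the level stayed high in TM-1 and was low in *im*. The 154 probes higher in *im* at 13 DPA and tested throughout had medians of 9.84, 9.90, 11.09, 11.27 and 11.76 in TM-1. The *im* medians of the same probes were 11.28, 10.39, 10.71, 11.31 and 11.57. Their level in TM-1 was lowest at 13 DPA, which chose them, and at 16 DPA. Levels across stages rest on the Aquantile scaling and were not tested.

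**Figure D5:**
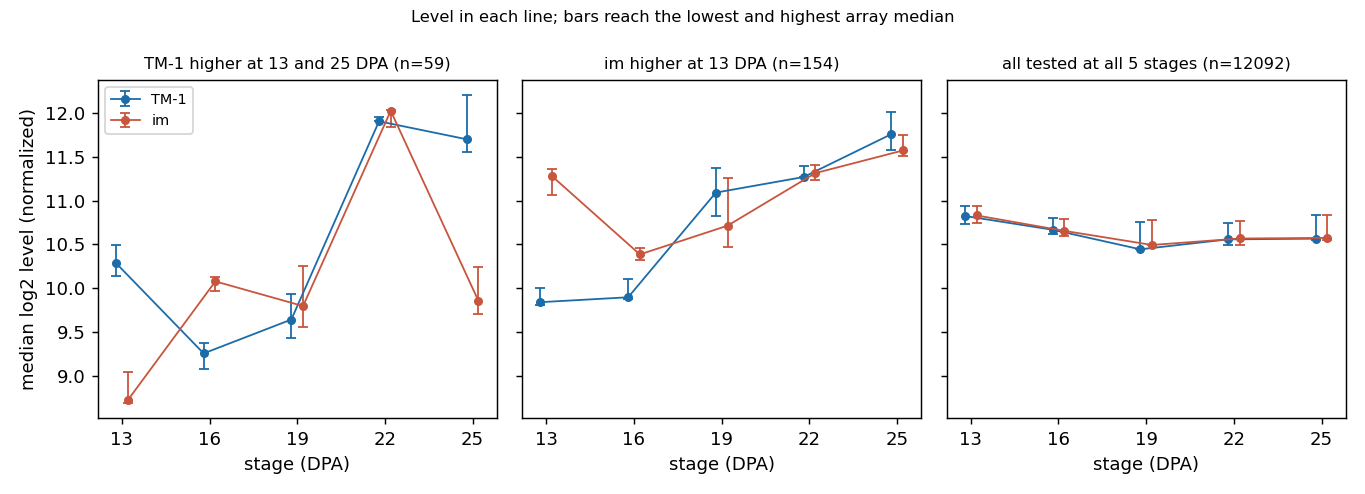
Median log2 level of each line over the stages for probes higher in TM-1 at 13 and 25 DPA (n = 59), probes higher in *im* at 13 DPA (n = 154) and all probes tested at all 5 stages (n = 12092); bars reach the lowest and highest array median. In the left panel both lines are close to 12 at 22 DPA and part at 25 DPA, a stage that chose these probes. The medians of all probes stay between 10.4 and 10.8.

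Both probes with the largest excess in TM-1 were called higher in TM-1 again at 25 DPA. Probe 384P39_D_20 had a log2 ratio of 2.51 at 13 DPA, -1.34 at 16 DPA, -0.24 at 19 DPA, -0.47 at 22 DPA and 2.06 at 25 DPA, and was called at 13, 16 and 25 DPA. Probe 384P29_D_18 followed it, at 2.34, -1.78, 0.10, -0.23 and 1.75. Among probes higher in *im*, 384P51_F_12 was at -1.14 at 16 DPA and was called the other way at 19 DPA, at 2.75. In contrast 384P72_B_17 stayed higher in *im* at -0.99, -1.35 and -0.96 at 16, 19 and 25 DPA, with a call at 19 DPA, and stood at 0.17 at 22 DPA.

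Calls at several stages are given by the source names. The probe higher in *im* that was called at the most stages was called at all 5, with log2 ratios of -2.28, -4.02, -5.08, -1.64 and -1.09. Its TM-1 value was under 400 units on 2 arrays at each of 19, 22 and 25 DPA, so the sizes there are uncertain. The one called higher in TM-1 at the most stages was called at 13, 16, 19 and 22 DPA, with ratios of 1.00, 1.01, 1.03 and 1.07, and stood at 0.55 at 25 DPA. At 13 DPA it lay just inside the 2-fold limit. With the signs of the material labels, the ratios at 16 and 22 DPA were 4.02 and 1.64 for the former and -1.01 and -1.07 for the latter, so neither kept its direction.

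The change in the line difference from 13 to 16 DPA was tested as a contrast of both stages. Of 16216 probes tested, 780 shifted by at least 2-fold with an adjusted p under 0.05 (4.81%), 480 of them towards TM-1 (2.96%) and 300 towards *im* (1.85%). Of these, 615 had not been called at 13 DPA. Among tested probes higher in TM-1 at 13 DPA 67 of 132 shifted towards *im* and 2 towards TM-1, and among those higher in *im* 89 of 187 shifted towards TM-1 and 7 towards *im*. As these probes were chosen on their 13 DPA values, which enter the shift, these counts are a description. The number of shifts depends on the labels of 16 DPA, and with the sign of that stage turned it was 3347.

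Of the called probes 384P48_J_18 had a large shift with both lines well measured. At 13 DPA it read 1673, 2058 and 1013 units in TM-1 and 11619, 10799 and 8869 units in *im*, a log2 ratio of -2.69 ± 0.25 (SD, n = 3), and at 16 DPA the ratio was 1.20. By the source names the lines had changed places, with a shift of 3.89 (adjusted p = 1.26e-06 by limma). With the sign of the material labels at 16 DPA the ratio there was -1.20 and the shift 1.497.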

How the data were processed

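The members, probe sets and tests were chosen with earlier results of these data known. The authors scanned the arrays with LuxScan, and the deposited array files hold Cy5 and Cy3 spot and background intensity for 30000 spots, of which 816 control spots were left out of the tests. The deposited value table holds log2 ratios of Cy5 over Cy3 made by the authors, and was used as an alternative. Against the intensities of the same arrays its 13 DPA columns correlated at 0.967 to 0.992, with medians of 0.0005, 0.0167 and 0.0033, so its scale and centring are settled. The written methods name removal of spots under 400 units, LOWESS and Aquantile. These columns still list 8593, 9340 and 11744 probes with both dyes under 400 units, so which steps made the table stays unknown. It had 0 columns of another series. Per the submitters' processing notes, the tools were limma 3.4.5 and R 2.12.2.

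With limma 3.58.1 in R 4.3.3, a floor of 50 units was set on background-subtracted medians, spots with both dyes under 400 units were left out, and loess and Aquantile followed. Replicate 2 was turned as the dye swap. The fit had one coefficient per stage over all 15 arrays. Probes measured on at least 2 of the 3 arrays entered the test, and were called at an adjusted p (Benjamini-Hochberg) under 0.05 and at least 2-fold. A limited fold sets the brighter line's mean log2 level against, per array, the higher of 2 levels. These are the dimmer line's own level and the lowest level of that line among probes at 400 units or more. It is not a strict minimum. Named probes had the same direction on all 3 arrays. They were those with the largest fold, the highest limited fold, calls at the most stages and the largest shift to 16 DPA. The marker lists planned for a table of gene names were not run.

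On simulated arrays for the lines at 13 DPA (18363 probes), the test recovered 96% of the probes changed by 1.3 and 100% of those changed by 2 (log2), with 6 other calls. For the shift (16216 probes) these were 77% and 96%, with 7 others. The simulated arrays held independent normal noise with the moderated SD of each probe. They had no normalization step, floor, dye effect or correlation between arrays, so these shares may not hold for the real arrays. Replicate numbers were checked for pairing across stages. Deviations of same-numbered arrays of 13 and 16 DPA correlated at 0.22, 0.43 and 0.28, while the labels name no shared batch. Of 12 such correlations between 13 DPA and the later stages, 11 were above 0.1. Replicate 2 is the dye swap at every stage, so pairing and a dye effect of the probes cannot be told apart here. The main tests used no pairing, and a replicate block was run as an alternative.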

Additional observations from a re-analysis of the deposited data

Results flagged for a closer look

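The line difference shifted from 13 to 16 DPA at 780 probes, by the contrast of the 2 stages in limma. The called probes with the largest shifts, by log2(TM-1/*im*), were 384P54_F_20 (4.40, adjusted p = 0.037) and 384P48_J_18 (3.89, adjusted p = 1.26e-06), which moved towards TM-1, and 384P18_P_20 (-6.55, adjusted p = 0.00034) and 384P16_C_16 (-5.44, adjusted p = 0.0011), which moved towards *im*. All but 384P48_J_18 had 1 line under 400 units on all 3 arrays of 13 DPA. The sizes and p-values of their shifts rest in part on such values and are uncertain. For 384P54_F_20 replicate 1 of 13 DPA, with TM-1 at 31 units, had a log2 ratio of -5.77, against -1.31 and -1.54 on the others. Its mean at 13 DPA was -2.87, and -2.08 with median centring in place of loess. Without that array the mean was -1.42 (adjusted p = 0.147 by limma). For 384P18_P_20 the mean at 13 DPA was 2.62 without replicate 2 (adjusted p = 0.053 by limma). The sign at 16 DPA follows the source names, which the material labels oppose, and with it the choice of these probes as those with the largest shifts. With the sign turned at 16 DPA their shifts were 1.35, 1.497, 0.16 and -1.39 in the order given.

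The control spots enter no comparison of the lines. Of the 8 controls, 5 turned sign on replicate 2, and the other 3 were near the ceiling in both dyes on an array. Y4 and Y5 are given here and were chosen after their values were seen, Y4 as the control with no saturated spot and Y5 as the one furthest from 0. The median log2(Cy5/Cy3) on replicates 1, 2 and 3 was 0.73, -0.52 and 0.24 for Y4. For Y5 it was 1.67, -1.38 and 1.99, with 47 of 48 spots saturated on each array, so that its sizes are bounds. Over the 5 stages Y4 turned at 3, whereas Y5 and Y6 turned at all 5.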

How the results depend on the processing

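The 382 probes called at 13 DPA became 252 (87 higher in TM-1, 165 higher in *im*) when spots with either dye under 400 units were left out. They became 2 when replicate 2 was not turned as the dye swap at any stage, in the fit that shares its spread between stages. Under the other filters, background corrections, normalizations, the deposited value table, a dye term and a fit on the arrays of the stage alone the count was 276 to 413. Leaving out each replicate gave 292 to 416. The main fit did not pair replicate numbers. With a replicate block 384 probes were called at 13 DPA and 843 shifted, against 382 and 780, so the block moved neither count by over 1.5 times. The shift count was 3347 (1838 rose, 1509 fell) with the sign turned at 16 DPA, and 621 to 844 leaving out each replicate. The share of probes higher in TM-1 at 13 DPA that were called the same way at 25 DPA was 55.6% to 66.0% leaving out each replicate and 49.4% (88 of 178) with no filter on faint spots, its lowest value. For those higher in *im* it was 4.93% to 9.64%, and the highest was without replicate 3 of 25 DPA. These 2 shares were added after seeing the data. With the sign turned on every array the counts change places (232 and 150) and the named log2 ratios become -2.51, -2.34, -3.42, -2.54, -1.003, -2.81 and -3.20 for those higher in TM-1, and 2.87, 2.75, 2.83, 2.22, 2.28, 2.87 and 2.69 for those higher in *im*. Without the swap 384P16_C_16 was at -0.38. The cause of these changes was not tested beyond what each setting does by construction. Signal over background limits the folds of probes with 1 line under 400 units, so the sizes of these folds are uncertain.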
